A study of Mus musculus with 6 samples.

Results

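The genes described here encode the machinery of the endoplasmic reticulum (ER) that takes in, folds, checks, degrades and exports secreted proteins. They are 50 genes of the 55414 Ensembl identifiers in the count table, listed by their function, and all 50 were found. By role they form 5 groups, namely 12 chaperones and lectins, 8 genes of disulfide bond formation, 12 genes of translocation and signal peptide removal, 8 genes of ER-associated degradation (ERAD) and 10 genes of COPII export. Paneth cells (PCs) had been purified by cell sorting from the small intestine of C57BL/6J mice 15 h after injection of tumour necrosis factor (TNF, 3 libraries) or phosphate-buffered saline (PBS, 3 control libraries), with a separate mouse behind each library. The mice of both groups carried the same IFNAR1 KO genotype, a knockout of the gene Ifnar1 for a chain of the type I interferon receptor, so the comparison holds for animals of that genotype only. The labels give no sex, age, TNF dose, litter or batch. The question was how TNF changes the PC transcriptome, here for the secretory apparatus of the ER.

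PCs sit at the base of small intestinal crypts and secrete granules of antimicrobial proteins, among them lysozyme and the disulfide-rich alpha-defensins, so their ER carries a heavy load of proteins to fold. A nascent secretory protein enters the ER through the Sec61 channel, loses its signal peptide, is bound by the chaperone BiP or by the lectins calnexin and calreticulin, gains disulfide bonds from protein disulfide isomerases (PDIs) that the ERO1 oxidases recharge, and leaves in COPII-coated vesicles. Proteins that fail to fold are drawn back to the cytosol and degraded (ERAD). The unfolded protein response (UPR), through the transcription factors XBP1 and ATF6, is known to raise many of these genes together.

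Total counts were 12747484 to 17039511 per library, and 48 of the 50 genes had at least 100 counts in every library. Levels are given as CPM, counts scaled to a common library total with TMM factors. TNF replicate 1 stood apart from its group. On the first principal component, which held 48.9% of the variance, it lay at -39.3 beside the PBS libraries at -35.8 to -28.7, while TNF replicates 2 and 3 lay at 63.0 and 73.1. The main counts, and the genes whose call or value it decides, are therefore given with and without TNF replicate 1, and leaving it out was 1 of 6 refits that each omitted 1 library. The fit without it keeps only TNF replicates 2 and 3 in the TNF group. TNF replicate 1 was singled out from these same data for lying near the controls, so leaving it out widens the difference between groups. Adjusted p values of that fit are descriptive and no independent test. Ifnar1 itself was read at 5.18 to 12.7 CPM in the 6 libraries, and no library without the knockout was at hand to set this against. The 10 PC markers summed to 388836 to 477000 CPM in PBS libraries and to 652208, 284371 and 457503 CPM in TNF replicates 1, 2 and 3. Single PC markers differed in both directions. Without TNF replicate 1, 1 was lower and 2 were higher at an adjusted p under 0.05 in edgeR (5.40% and 9.10% of all genes). The summed stem cell markers (8 genes; 2623 to 3218 CPM in PBS) stood at 4775, 965 and 856 CPM in TNF replicates 1, 2 and 3, those of enterocytes (10 genes; 370 to 445 CPM) at 396, 117 and 92.8 CPM, and those of proliferation (10 genes; 263 to 424 CPM) at 343, 129 and 140 CPM. Markers of plasma cells, another cell type with a large ER, summed to only 2.94 to 4.91 CPM in the controls and 1.08 to 2.38 CPM in TNF libraries, and 4 of the 8, among them Jchain and Mzb1, were at 0 in all libraries. Goblet cell markers (8 genes), of another secretory cell, summed to 11493 to 12492 CPM in PBS and to 14881, 8146 and 12156 CPM in TNF replicates 1, 2 and 3, and 4 of the 8 were lower and 1 higher at an adjusted p under 0.05 without TNF replicate 1. The marker sums of stem cells, enterocytes and proliferation were thus below the PBS range in TNF replicates 2 and 3, and that of goblet cells in TNF replicate 2. Olfm4 made up most of the stem cell sum in PBS libraries. Its PBS range was 1925 to 2374 CPM, and TNF replicates 1, 2 and 3 had 3887, 233 and 272. Ascl2, Smoc2, Axin2 and Rnf43 were also below their PBS ranges in TNF replicates 2 and 3. Lgr5 was below in TNF replicate 3 only, and Slc12a2 and Znrf3 in neither. Tuft cell markers (6 genes) summed to 358, 1051 and 1269 CPM in PBS and to 463, 797 and 447 CPM in TNF libraries. Enteroendocrine markers (8 genes) summed to 50.6, 73.2 and 129 CPM in PBS and to 88.0, 38.0 and 122 CPM in TNF libraries. Markers of other immune cells (8 genes) summed to 22.1, 42.0 and 54.4 CPM in PBS and to 45.4, 36.7 and 35.6 CPM in TNF libraries. In these lists PBS replicate 1 was the lowest control. The part of all these markers in the results was not tested. In such bulk libraries fewer cells of a type and less RNA per cell cannot be told apart.

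Most ER machinery genes had lower fitted levels after TNF, but none passed the test over all 6 libraries. The fitted fold change was below 0 for 40 of the 50 genes (50% of all 13026 genes tested), with a median of -0.51 on the log2 scale beside -0.00 over all genes. In the quasi-likelihood test of edgeR 0 of 50 genes had an adjusted p under 0.05, termed 5% below, as did 0 of all 13026 genes (0.00%). With no adjustment, 16 genes had lower and 1 had higher values at p under 0.05 (4.0% and 8.25% of all genes). DESeq2 passed 3 genes as lower and 0 as higher at 5% (0.307% and 1.75% of its genes), namely Hyou1, Derl3 and Sec24d. Without TNF replicate 1, 19 genes were lower and 1 was higher at 5% in edgeR (5.40% and 9.10% of all genes), with a median of -0.63. The other 5 refits that left out a library passed 0 genes.

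The 50 genes together summed to 16490, 11539 and 12200 CPM in PBS replicates 1 to 3 and to 12346, 9390 and 9298 CPM in TNF replicates 1 to 3. TNF replicates 2 and 3 were below all PBS libraries, whereas TNF replicate 1 lay between PBS libraries. The place of TNF replicate 1 depended on its TMM factor, 0.798 beside 0.959 to 1.11 in PBS. As a share of raw counts, without these factors, the genes held 1.58%, 1.28% and 1.30% in PBS replicates 1 to 3. In TNF replicates 1 to 3 they held 0.984%, 1.13% and 0.850%, all below the PBS libraries. Gene by gene, TNF replicates 2 and 3 were both below every PBS library for 32 genes (22.0% of all genes) and both above for 3 genes (24.1%). TNF replicate 1 was below the PBS range for 24 genes (26.6% of all genes), within it for 18 and above it for 8 (28.2% of all genes). The groups did not overlap for 18 genes that were lower and 1 that was higher after TNF (7.82% and 9.07% of all genes). PBS replicate 1 had the highest of the 6 values for 34 of the 50 genes (17.9% of all genes), and without it 6 instead of 16 genes were lower at an unadjusted p under 0.05.

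**Figure D1:**
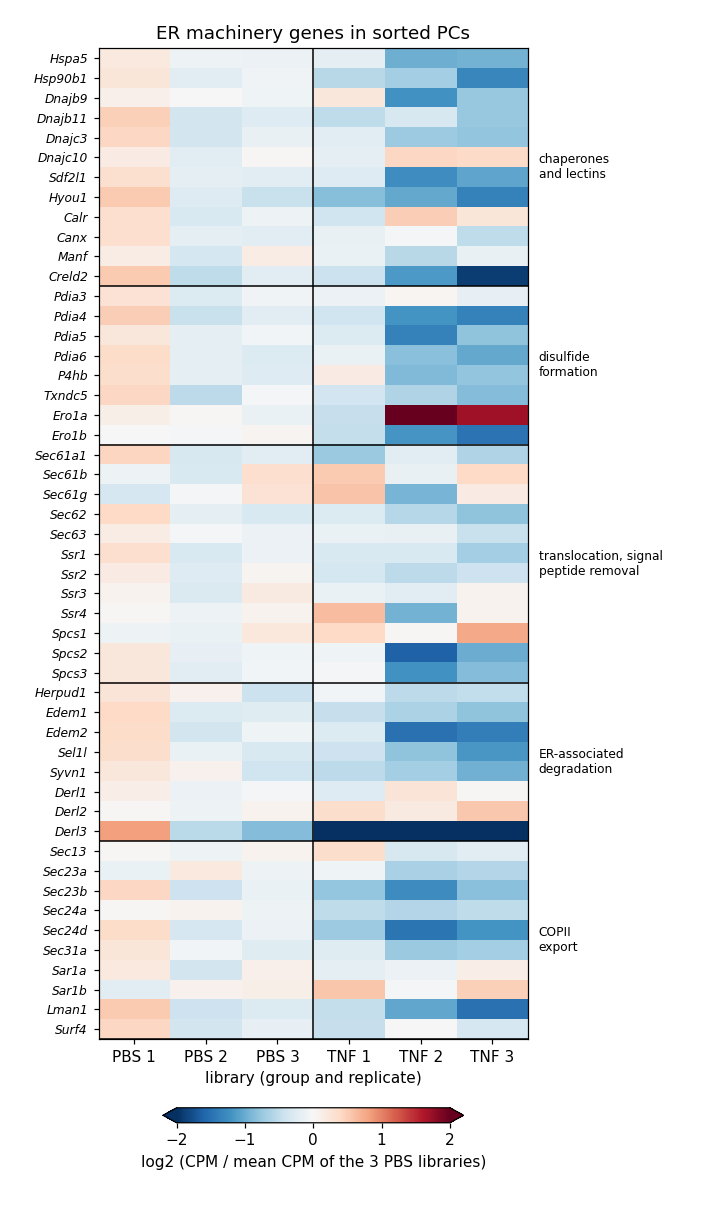
Level of each of the 50 ER machinery genes (rows, by functional group) in each library (columns), as log2 of CPM over the mean of the 3 PBS libraries; colours stop at -2 and 2. PBS replicate 1 is the highest library for 34 genes, TNF replicates 2 and 3 are mostly blue, TNF replicate 1 is paler, and Ero1a is dark red in TNF replicates 2 and 3.

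The 5 groups differed in how far they were lower. The median log2 fold change was -0.67 for ERAD, -0.61 for disulfide formation, -0.53 for chaperones and lectins, -0.48 for COPII export and -0.33 for translocation and signal peptide removal, and without TNF replicate 1 it was -0.74, -0.86, -0.84, -0.57 and -0.36 in the same order. At an unadjusted p under 0.05 in edgeR, 5 of 8 ERAD genes, 4 of 10 COPII genes and 4 of 12 chaperones and lectins had lower values. So did 3 of 8 disulfide genes and 0 of 12 translocation genes, beside 4.0% of all genes. In the other direction, 1 disulfide gene, Ero1a, had higher values at that limit, beside 8.25% of all genes. Summed levels are dominated by the most abundant genes and gave log2 ratios of group means of -0.52 for ERAD, -0.45 for COPII export, -0.40 for disulfide formation, -0.36 for chaperones and -0.26 for translocation. No test was made between the groups.

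**Figure D2:**
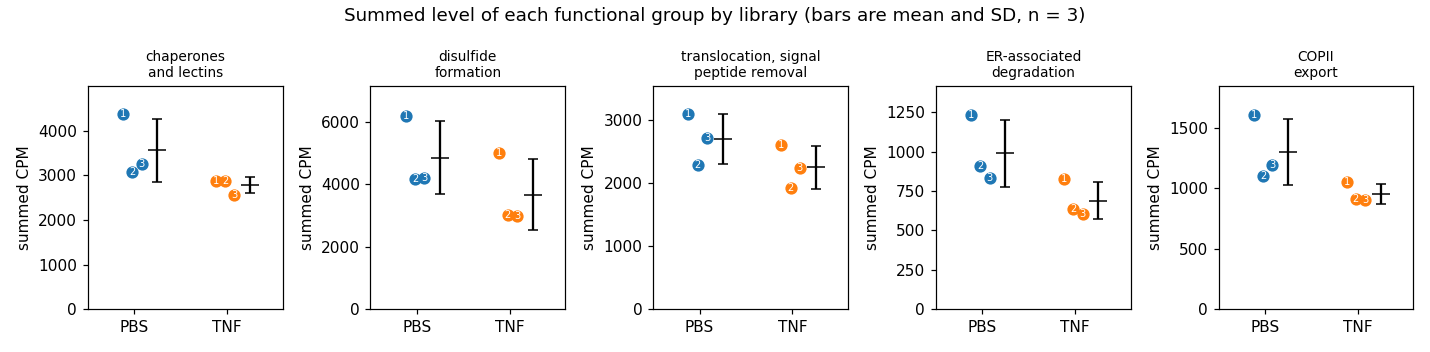
Summed CPM of each functional group (vertical axes, from 0) by library; numbered points are replicates, bars the mean and SD of 3 libraries. For chaperones, ERAD and COPII export all 3 TNF libraries lie below all 3 PBS libraries, whereas TNF replicate 1 lies among the PBS libraries for disulfide formation and translocation.

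Many promoters of these genes carry a known UPR element, and the printed stretches show it for 6 of the genes that carry it whole. The ER stress response element (ERSE) reads CCAAT, any 9 bases, CCACG, in which CCAAT is bound by NF-Y and CCACG by ATF6 or XBP1. Promoter windows of RefSeq (GRCm38.p6 table; 250 bases before to 50 after a start) were at hand for 43 of the 50 genes. On either strand, a whole ERSE was found in 10 of these 43 genes (23.3%), namely Hspa5, Hsp90b1, Dnajc3, Calr, Canx, Creld2, Pdia6, Ero1b, Syvn1 and Derl3, against 0.137% of the 27025 genes with a window. By group, 6 of 10 chaperones and lectins, 2 of 8 disulfide genes, 2 of 7 ERAD genes, 0 of 9 translocation genes and 0 of 9 COPII genes with a window had it. The related ERSE-II (ATTGG, any base, CCACG) was in Dnajb11 and Herpud1 (0.0444% of all genes), and the UPR element TGACGTGG in Txndc5, Sec23a and Sec24d (0.714%). The core CCACG, which is also part of ERSE and ERSE-II, was in 34 of the 43 genes (79.1%) and in 35.5% of all genes. Shown 5' to 3' on the strand of the gene are the 6 genes with a whole ERSE and the largest fold changes without TNF replicate 1. Capitals mark the CCAAT and CCACG parts, which read ATTGG and CGTGG where the element lies on the other strand. Each stretch matched GRCm39 exactly once, at chr10:75729036-75729134 (Derl3), chr15:88703683-88703781 (Creld2), chr13:12580523-12580621 (Ero1b), chr12:17316452-17316550 (Pdia6), chr2:34662032-34662060 (Hspa5) and, on the minus strand, chr10:86541497-86541525 and chr10:86541392-86541420 (the 2 elements of Hsp90b1). For Hspa5 and Hsp90b1 only the element with 5 bases on each side is shown, because transcripts that start further upstream are annotated there.
Derl3: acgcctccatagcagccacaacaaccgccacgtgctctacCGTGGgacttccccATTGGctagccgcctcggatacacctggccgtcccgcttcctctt
Creld2: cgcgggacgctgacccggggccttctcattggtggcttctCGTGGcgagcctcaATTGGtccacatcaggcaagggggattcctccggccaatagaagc
Ero1b: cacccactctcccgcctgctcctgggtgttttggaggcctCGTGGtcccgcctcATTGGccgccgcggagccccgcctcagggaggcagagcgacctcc
Pdia6: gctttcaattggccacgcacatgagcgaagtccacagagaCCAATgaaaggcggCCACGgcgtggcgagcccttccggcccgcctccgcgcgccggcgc
Hspa5: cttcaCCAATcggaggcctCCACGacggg
Hsp90b1, distal: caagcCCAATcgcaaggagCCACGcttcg
Hsp90b1, proximal: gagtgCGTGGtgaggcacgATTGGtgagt

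The 10 genes with a whole ERSE had a median log2 fold change of -0.69, and 9 of them were below 0 (50% of all genes). Without TNF replicate 1 their median was -0.93 and 7 of the 10 were lower at 5% (5.40% of all genes). The 33 genes with a window but no ERSE had a median of -0.42, with 25 below 0. Without TNF replicate 1 their median was -0.50, with 9 lower and 1 higher at 5% (5.40% and 9.10% of all genes). Among the 10 genes with this element the log2 fold changes ran from -2.39 to 0.16. Calr and Canx carry it as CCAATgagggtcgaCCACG and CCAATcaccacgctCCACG, and their fitted log2 fold changes were 0.16 and -0.22. Sec24d and Edem2 carry no whole ERSE in their windows and had some of the lowest log2 fold changes, -1.09 and -0.94. Genes without a whole ERSE were not all free of UPR elements. Sec24d, Txndc5 and Sec23a among them carry TGACGTGG, and Dnajb11 and Herpud1 carry ERSE-II. These counts describe letter matches, and the ERSE members and the rest were not tested against each other. The element was unevenly spread, with 6 of 10 chaperones and lectins but 0 of 9 translocation and 0 of 9 COPII genes. A difference by element therefore cannot be told apart from one by functional group.

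Among the chaperones, Hspa5, Hsp90b1, Hyou1, Dnajb9, Sdf2l1 and Creld2 were lower at 5% without TNF replicate 1, and the other 6, the lectins Calr and Canx among them, were not. Hspa5 (ENSMUSG00000026864, chr2:34661982-34668880), which encodes BiP, the central Hsp70 of the ER, stood at 993, 809 and 794 CPM in PBS replicates 1 to 3 and at 752, 441 and 447 CPM in TNF replicates 1 to 3. All TNF values were below all PBS values, with TNF replicate 1 close to the controls. The fitted log2 fold change was -0.66 (SE 0.30, adjusted p = 0.425 in edgeR) over all libraries and -0.94 (adjusted p = 0.0269) without TNF replicate 1. Hyou1 (chr9:44290418-44303666), the Hsp70-like partner that drives nucleotide exchange on BiP, stood at 483, 280 and 247 CPM in the controls and 186, 165 and 132 CPM in TNF libraries. All TNF values, that of TNF replicate 1 included, were below all PBS values. TNF against PBS gave a log2 fold change of -1.06 (SE 0.31, adjusted p = 0.278 in edgeR and 0.0289 in DESeq2), and -1.16 without TNF replicate 1, with adjusted p from 0.0153 to 0.897 over all settings. Hsp90b1 (chr10:86526073-86541446), the ER Hsp90 known as GRP94, stood at 417, 306 and 336 CPM in the controls and 239, 219 and 143 CPM in TNF libraries, again with no overlap. This amounted to a log2 fold change of -0.82 (SE 0.27, adjusted p = 0.311 in edgeR) and -0.94 (adjusted p = 0.0367) without TNF replicate 1. Without strand information, reads of the overlapping Rabepk could be counted for Hspa5, since 44.5% of the exon bases of its canonical transcript lie over that gene, and 24.9% of those of Hsp90b1 lie over other annotated genes.

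Creld2 (chr15:88703795-88710890) had the largest fold change of the chaperone group without TNF replicate 1 and came after Hyou1 over all libraries. It encodes a secreted factor of the UPR with disulfide isomerase-like activity, and its promoter is shown above. It stood at 46.8, 22.9 and 28.1 CPM in PBS and at 24.3, 14.8 and 8.70 CPM in TNF libraries. TNF replicate 1 lay within the PBS range, and the other TNF libraries lay below it. In the test the log2 fold change was -1.03 (SE 0.39, adjusted p = 0.347 in edgeR), and -1.44 (adjusted p = 0.0158) without TNF replicate 1. Of the J-domain cochaperones that load clients on BiP, Dnajb9 (ERdj4) had a log2 fold change of -0.45 over all libraries, and without TNF replicate 1 it was lower at 5% (-0.95, adjusted p = 0.0140). Dnajb11 (ERdj3) and Dnajc3 (p58IPK) had -0.52 and -0.55, without passing 5% in either fit. Dnajc10 (ERdj5), a reductase that opens disulfides of ERAD clients, had 0.23. It stood at 278, 212 and 252 CPM in PBS and at 216, 331 and 324 CPM in TNF libraries, with TNF replicate 1 within the PBS range. Sdf2l1, which works with the ERdj3 complex, was lower at 5% without TNF replicate 1 (-1.13, adjusted p = 0.00832) and had no overlap between the groups. Manf, a neurotrophic factor that binds BiP, had -0.26, and -0.31 without TNF replicate 1.

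The calnexin cycle, in which the lectins Canx and Calr hold glycoproteins for the disulfide isomerase Pdia3, had fold changes nearer to 0. Calr (chr8:85567946-85573667) stood at 881, 571 and 653 CPM in PBS and at 534, 987 and 829 CPM in TNF libraries. The TNF libraries spanned the PBS range on both sides, with TNF replicate 1 the lowest and TNF replicate 2 the highest of all 6. Its log2 fold change was 0.16 (SE 0.32, adjusted p = 0.868 in edgeR), 0.39 (adjusted p = 0.377) without TNF replicate 1 and -0.08 without TNF replicate 2. Canx had -0.22 (SE 0.26) and Pdia3 -0.08 (SE 0.26), with adjusted p of 0.768 and 0.927, and without TNF replicate 1 they had -0.24 and -0.04. Compared per kb of canonical transcript, Calr was the second most abundant of the 50 genes with 325 CPM per kb, beside 145 for Pdia3 and 143 for Hspa5.

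Among the disulfide genes the ERO1 oxidases differed in opposite directions in TNF replicates 2 and 3, and both passed 5% without TNF replicate 1. Ero1a (ENSMUSG00000021831, chr14:45520541-45556228), the widely expressed oxidase that passes electrons from PDIs to oxygen, stood at 36.2, 33.9 and 30.4 CPM in PBS and at 24.4, 140 and 109 CPM in TNF libraries. TNF replicate 1 was the lowest library and TNF replicates 2 and 3 were far above all others. The fitted log2 fold change was 1.45 (SE 0.50, adjusted p = 0.324 in edgeR) over all libraries, and without TNF replicate 1 it was 1.91 (adjusted p = 1.54e-04), with adjusted p from 3.82e-05 to 0.899 over all settings. Ero1b (ENSMUSG00000057069, chr13:12580716-12626285), the oxidase typical of cells with heavy secretion such as the endocrine pancreas, stood at 61.4, 59.9 and 64.3 CPM in PBS and at 44.7, 27.2 and 22.3 CPM in TNF libraries. PBS libraries were nearly identical and all TNF libraries were below them. TNF against PBS gave a log2 fold change of -0.98 (SE 0.27, adjusted p = 0.278), and -1.30 (adjusted p = 0.00156) without TNF replicate 1. Per kb, Ero1a made up 36.4%, 35.4% and 31.4% of the pair in PBS and 34.6%, 83.3% and 82.5% in TNF libraries. Its share in TNF replicate 1 lay within the PBS range, so the change of the pair was seen in TNF replicates 2 and 3.

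The isomerases were mostly lower. P4hb (chr11:120451122-120464538), the classical PDI, was the most abundant of the 50 genes at 953 CPM per kb and stood at 4112, 2838 and 2688 CPM in PBS and at 3587, 1735 and 1855 CPM in TNF libraries. TNF replicate 1 lay among the PBS libraries and the other TNF libraries lay below them. This amounted to a log2 fold change of -0.43 (SE 0.40, adjusted p = 0.699 in edgeR), and -0.82 (adjusted p = 0.0950) without TNF replicate 1, which passed 5% in neither fit. Pdia4 (ERp72, chr6:47770077-47790462) stood at 195, 101 and 119 CPM in PBS and at 106, 60.3 and 54.2 CPM in TNF libraries. As for P4hb, TNF replicate 1 lay within the PBS range. In the test the log2 fold change was -0.92 (SE 0.34, adjusted p = 0.332), and -1.26 (adjusted p = 0.0137) without TNF replicate 1. Pdia5 and Pdia6, further isomerases, were lower at 5% without TNF replicate 1 as well (-1.03 and -0.91, adjusted p = 0.0131 and 0.0397), with -0.75 and -0.61 over all libraries. Txndc5 (ERp46) had -0.60 and -0.71 and passed 5% in neither fit.

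Translocation was the group with the smallest shift, and no gene of the Sec61 channel or its associated TRAP complex passed 5% in either fit. Sec61a1 (chr6:88480561-88495899), the pore itself, stood at 588, 351 and 372 CPM in PBS and at 261, 374 and 287 CPM in TNF libraries, which overlap. Its log2 fold change was -0.51 (SE 0.29, adjusted p = 0.506 in edgeR), and -0.38 without TNF replicate 1. The small channel subunits Sec61b and Sec61g had 0.28 and 0.05. Sec61g, with 76 to 124 counts per library, had the lowest level of the group at 3.48 CPM per kb. The post-translational partners Sec62 (chr3:30847022-30876314) and Sec63 had -0.53 and -0.24. Sec62 stood at 124, 81.9 and 75.6 CPM in PBS and at 77.7, 63.2 and 53.6 CPM in TNF libraries. TNF replicate 1 lay within the PBS range and the other TNF libraries below it (SE 0.26, adjusted p = 0.436 over all libraries; -0.66, adjusted p = 0.0993 without TNF replicate 1). The TRAP subunits Ssr1 and Ssr2 had -0.42 and -0.43 with no overlap between the groups, whereas Ssr3 and Ssr4 had -0.09 and 0.05. Ssr3 (chr3:65287076-65300044), the most abundant of the group per kb, stood at 565, 440 and 611 CPM in PBS and at 493, 467 and 564 CPM in TNF libraries, all of the latter inside the PBS range (SE 0.25, adjusted p = 0.915).

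The signal peptidase complex was split. Its noncatalytic subunits Spcs2 and Spcs3, which support cleavage, were lower at 5% without TNF replicate 1. Spcs2 (chr7:99486776-99512669) stood at 188, 142 and 150 CPM in PBS and at 151, 52.1 and 80.3 CPM in TNF libraries. TNF replicate 1 lay within the PBS range and the other TNF libraries were far below it. The fitted log2 fold change was -0.76 (SE 0.36, adjusted p = 0.432 in edgeR), and -1.26 (adjusted p = 0.00728) without TNF replicate 1. Spcs3 (chr8:54973464-54983053) showed the same pattern at 478, 350 and 393 CPM in the controls and 396, 177 and 222 CPM in TNF libraries. TNF against PBS gave a log2 fold change of -0.62 (SE 0.33, adjusted p = 0.475), and -1.01 (adjusted p = 0.0197) without TNF replicate 1. The small subunit Spcs1 stood at 92.4, 90.7 and 114 CPM in PBS and at 131, 101 and 168 CPM in TNF libraries. Its log2 fold change of 0.43 (SE 0.25, adjusted p = 0.507) lay above 0 in all settings and passed 5% in none.

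**Figure D3:**
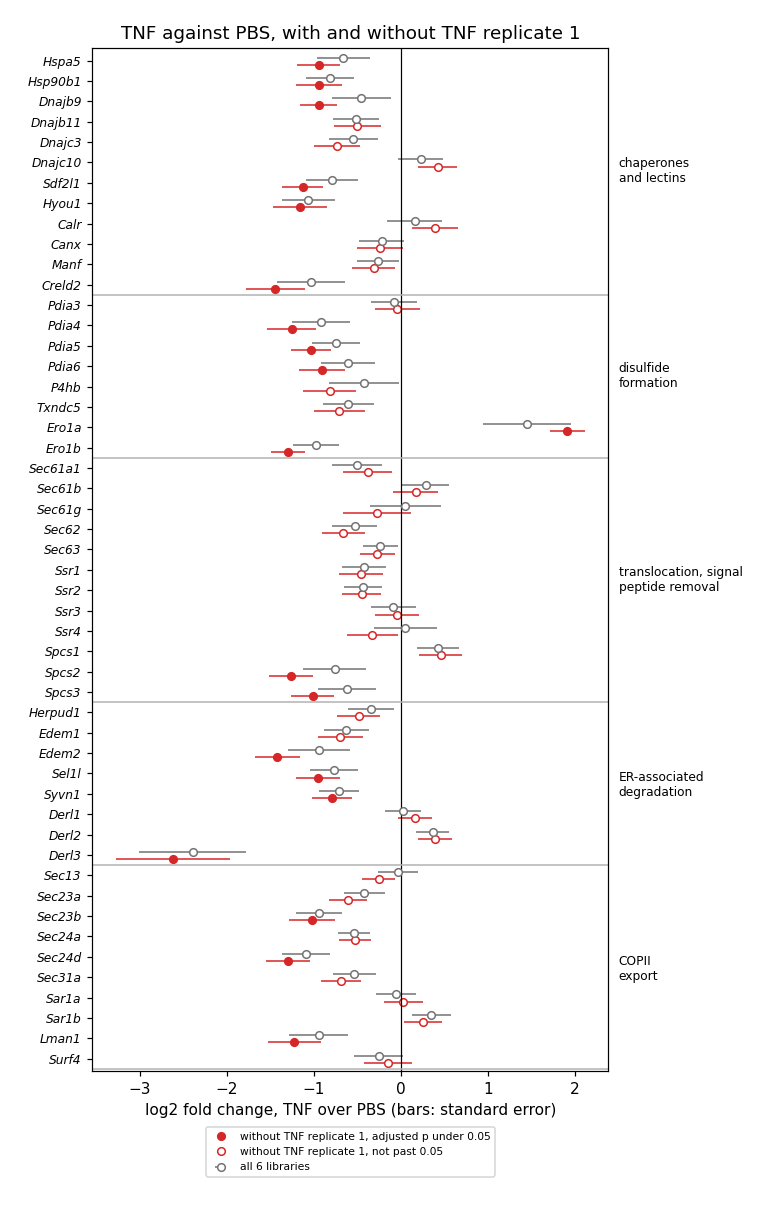
Log2 fold change, TNF over PBS, of the 50 genes with its standard error, from all 6 libraries (grey) and without TNF replicate 1 (red; filled where the adjusted p was under 0.05). Filled points are 19 genes below 0 and Ero1a above 0, and the grey points of 40 genes lie below 0.

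Within ERAD, the ubiquitin ligase complex and the mannosidase-like proteins had lower values, and among the derlins Derl3 stood alone. Derl3 (ENSMUSG00000009092, chr10:75729215-75731775), a rhomboid-like protein typical of secretory cells, stood at 12.1, 4.74 and 3.75 CPM in PBS and at 1.70, 0.587 and 1.69 CPM in TNF libraries. All TNF values were below all PBS values, and TNF replicate 1 was as low as TNF replicate 3. These rest on 168, 71 and 51 counts in PBS and 20, 12 and 21 counts in TNF libraries, the least abundant of the 50 genes per kb. The log2 fold change, the largest of the 50 over all libraries, was -2.39 (SE 0.61, adjusted p = 0.270 in edgeR and 0.0118 in DESeq2), and -2.62 (adjusted p = 0.0218 in edgeR) without TNF replicate 1. The widely expressed Derl1 and Derl2 had 0.02 (SE 0.21) and 0.37 (SE 0.19). Derl2 stood at 41.9, 38.4 and 43.0 CPM in PBS and at 52.6, 46.8 and 59.8 CPM in TNF libraries, the only one of the 50 genes with all TNF values above all PBS values (adjusted p = 0.465). Derl3 made up 16.8% ± 8.31 (SD, n = 3) of the derlins per kb in PBS and 3.59% ± 1.81 in TNF libraries.

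Sel1l (chr12:91772799-91815982), the adaptor that holds the ERAD ubiquitin ligase together, stood at 215, 153 and 137 CPM in PBS and at 126, 96.5 and 74.9 CPM in TNF libraries, with no overlap. In the test the log2 fold change was -0.77 (SE 0.27, adjusted p = 0.329 in edgeR), and -0.95 (adjusted p = 0.0281) without TNF replicate 1. The ligase itself, Syvn1 (HRD1), had -0.71 and no overlap, and -0.79 (adjusted p = 0.0429) without TNF replicate 1. Edem2 (chr2:155542455-155571395), which begins the mannose trimming that marks glycoproteins for degradation, stood at 222, 135 and 162 CPM in PBS and at 142, 61.6 and 66.0 CPM in TNF libraries. TNF replicate 1 lay within the PBS range, and TNF replicates 2 and 3 lay below it. Its log2 fold change was -0.94 (SE 0.36, adjusted p = 0.344), and -1.42 (adjusted p = 0.00388) without TNF replicate 1. Edem1, a related mannosidase-like protein, had -0.63 with no overlap and -0.70 (adjusted p = 0.102) without TNF replicate 1. Herpud1 (chr8:95113022-95123141), a UPR-induced organiser of the ligase, stood at 309, 277 and 193 CPM in PBS and at 249, 181 and 185 CPM in TNF libraries. TNF replicate 1 again lay inside the PBS range. The fitted log2 fold change was -0.34 (SE 0.26, adjusted p = 0.632), and -0.49 without TNF replicate 1, so that this known UPR target passed 5% in neither fit.

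In COPII export, the coat subunits Sec23b and Sec24d and the cargo receptor Lman1 had the lowest log2 fold changes. Sec24d (ENSMUSG00000039234, chr3:123061103-123159291), a cargo-selecting subunit of the inner coat, stood at 170, 105 and 122 CPM in PBS and at 80.4, 48.0 and 58.1 CPM in TNF libraries. The groups did not overlap. TNF against PBS gave a log2 fold change of -1.09 (SE 0.28, adjusted p = 0.270 in edgeR and 0.0185 in DESeq2), and -1.30 (adjusted p = 0.00610 in edgeR) without TNF replicate 1, with adjusted p from 0.00304 to 0.897 over all settings. Sec23b (chr2:144391970-144432684), the GTPase-activating partner of Sec24, stood at 123, 69.1 and 83.9 CPM in PBS and at 53.9, 38.4 and 51.4 CPM in TNF libraries, with no overlap. This amounted to a log2 fold change of -0.95 (SE 0.26, adjusted p = 0.278 in edgeR), and -1.02 (adjusted p = 0.0267) without TNF replicate 1. Lman1 (ERGIC-53, chr18:66113808-66155651), a mannose lectin that carries glycoproteins out of the ER, stood at 287, 150 and 165 CPM in PBS and at 144, 97.5 and 71.6 CPM in TNF libraries. TNF replicate 1 was just below the lowest PBS library. In the test the log2 fold change was -0.94 (SE 0.34, adjusted p = 0.331), and -1.23 (adjusted p = 0.0213) without TNF replicate 1.

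The other export genes were closer to 0. Surf4 (chr2:26807611-26823940), a receptor for soluble cargo and the most abundant of the group per kb, stood at 417, 241 and 279 CPM in PBS and at 227, 311 and 247 CPM in TNF libraries, which overlap. Its log2 fold change was -0.26 (SE 0.28, adjusted p = 0.749 in edgeR), and -0.14 without TNF replicate 1, and 74.8% of the exon bases of its canonical transcript lie over Surf2 and Stkld1 on the other strand. Sec31a, of the outer coat, had -0.54 with no overlap, and its partner Sec13 had -0.04. The paralogues Sec23a and Sec24a had -0.42 and -0.54. Sec24a had little spread, at 69.5, 71.8 and 63.5 CPM in the controls and 47.8, 45.3 and 48.2 CPM in TNF libraries, with TNF replicate 1 between the other TNF libraries (adjusted p = 0.317 over all libraries and 0.0864 without TNF replicate 1). The GTPases Sar1a and Sar1b, which start the coat, had -0.05 and 0.35. Per kb, Sec23b made up 84.4% ± 5.21 of the Sec23 pair in PBS and 80.0% ± 2.55 in TNF libraries, Sec24d 76% ± 4.76 and 68.4% ± 5.05 of the Sec24 genes set side by side, and Sar1b 57.7% ± 7.36 and 63.9% ± 5.24 of the Sar1 pair (SD, n = 3). In each of these families the shares in PBS and TNF libraries overlapped, unlike that of Derl3.

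**Figure D4:**
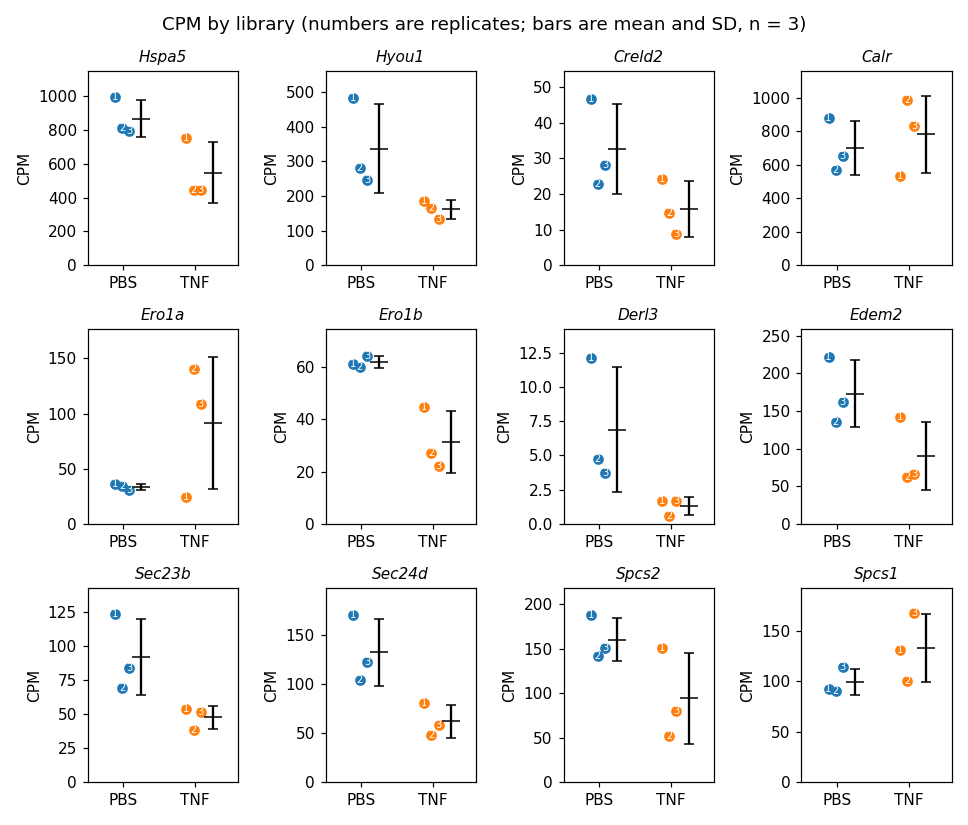
CPM of 12 genes (vertical axes, from 0) in each library; numbered points are replicates, and bars give the mean and SD of 3 libraries. In Hyou1, Derl3, Sec23b and Sec24d all TNF libraries lie below all PBS libraries, in Ero1a TNF replicates 2 and 3 lie above 100 CPM and TNF replicate 1 below all PBS libraries, and in Calr and Spcs1 the mean of the TNF libraries lies above that of the PBS libraries.

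Other genes of the same pathway outside these 50 were listed by function and described by the same counts, with no test between the lists. The median log2 fold change was -0.10 for 30 other folding enzymes, -0.22 for 25 other genes of translocation and N-glycosylation, -0.01 for 20 other ERAD genes, -0.19 for 37 tested genes of export and retrieval and -0.46 for 20 UPR regulators. Without TNF replicate 1 these medians were -0.13, -0.23, 0.07, -0.21 and -0.62 in the same order. The UPR regulators, 17 of 20 of which were below 0, thus had a median close to that of the 50 genes, and the other lists lay nearer to 0. No gene of these lists passed 5% over all libraries. Without TNF replicate 1, 3 of 30 folding enzymes were lower, 4 of 25 genes of translocation and glycosylation were lower and 1 higher, 2 of 20 ERAD genes were lower, 5 of 38 genes of export and retrieval were lower and 2 higher, and 3 of 20 UPR regulators were lower at 5%, beside 5.40% lower and 9.10% higher over all genes. Several of these counts are near the share over all genes.

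The ends of each list were as follows. The highest log2 fold changes were 0.46 for Sdf2 among folding enzymes, 0.38 for Rnf139 in ERAD and 0.46 for Sesn2 among UPR regulators. None of these genes passed 5% in either fit. Among folding enzymes the lowest was Pdia2, a pancreatic-type PDI, at 127 ± 57.4 CPM in PBS and 50.5 ± 47.1 in TNF libraries (SD, n = 3), with a log2 fold change of -1.33 (adjusted p = 0.439 in edgeR), and -2.37 (adjusted p = 0.00753) without TNF replicate 1. In glycosylation the lowest was Stt3a, a catalytic subunit of the oligosaccharyltransferase, at 207 ± 45.0 and 117 ± 36.9 CPM, with -0.83 (adjusted p = 0.324), and -1.07 (adjusted p = 0.0174) without TNF replicate 1. The highest there was Tram2, a translocating chain-associated protein, at 1.03 ± 0.327 and 3.69 ± 3.05 CPM, with 1.85 (adjusted p = 0.336), and 2.26 (adjusted p = 0.0259) without TNF replicate 1. In ERAD the lectin Os9 had -0.84, and -1.12 (adjusted p = 0.0555) without TNF replicate 1. In export, Sec16b, an organiser of ER exit sites, had 31.8 ± 2.82 and 15.0 ± 3.61 CPM (-1.08, adjusted p = 0.270), and Cnih4, a cornichon family cargo receptor, 10.4 ± 2.01 and 29.8 ± 13.1 CPM (1.51, adjusted p = 0.270). Without TNF replicate 1 both passed 5%, at -1.27 (adjusted p = 0.00237) and 1.82 (adjusted p = 6.94e-04). The lowest UPR regulator was Chac1, a glutathione-degrading enzyme induced in ER stress, at 24.2 ± 18.0 CPM in the controls and 5.69 ± 6.88 CPM in TNF libraries, with -2.11 (adjusted p = 0.402), and -3.83 (adjusted p = 0.00761) without TNF replicate 1.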

How the data were processed

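RNA of sorted PCs was measured in 3 PBS and 3 TNF libraries, grouped by the sample labels, each from a different mouse. The authors deposited raw counts per Ensembl gene, and no column of sample values was left unused. The processing notes name FastQC, Trimmomatic 0.39, STAR 2.7.10a, DESeq2 and mm39 without a role. The counting tool, annotation release, use of strand and treatment of reads with several matches were not given in the sources used here. Without strand, reads of overlapping genes cannot be told apart, and 30 of the 50 genes share exon bases of the canonical transcript with another gene (10 of them over 10%).

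Identifiers were matched to GENCODE vM39 (GRCm39; 54749 of 55414, the rest holding 0.0193% of counts), which gave symbols, 1-based positions and the canonical transcript lengths behind CPM per kb. In R 4.3.3, edgeR 4.0.16 kept genes by filterByExpr (minimum count 10, minimum total 15; 13026 genes with 99.8% of counts; 13660 without TNF replicate 1), scaled with TMM and ran the two-sided quasi-likelihood test on group, with Benjamini-Hochberg adjustment over all tested genes. SE is the log2 fold change over the square root of F. Depth was 12747484 to 17039511 counts. Replicates differed by more than sampling noise. The edgeR steps, but not DESeq2, were tested on simulated counts. Members, functional groups, lists and motifs were chosen with earlier results of these data known, and no set was tested. Values in full are given for the 3 largest fold changes and the highest CPM per kb of each group, for Hspa5, Hsp90b1, Herpud1, Sel1l, Sec61a1 and Lman1, and for paralogue families side by side. Sec24a, Spcs1, Derl2 and Dnajc10 are given by library after their values were seen. Alternatives were leaving out each library, the replicate block, DESeq2 1.42.0, limma-voom (limma 3.58.1), upper-quartile or RLE factors, library size without factors, TMM without genes over 1% of counts, a minimum mean CPM of 5, and no filter on low counts. Same-numbered PBS and TNF libraries did not deviate together (r of -0.01, -0.07 and 0.03), so the numbers were not taken as pairs.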

Additional observations from a re-analysis of the deposited data

How the results depend on the processing

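Over all genes, 0 passed 5% in edgeR, against 690 with no low-count filter, 242 with DESeq2 and 0 to 1980 when 1 library was left out, and 1596 had an unadjusted p under 0.05. Of the 50 genes, 0 passed, against 10 with no low-count filter, 3 with DESeq2 and 0 to 20 when 1 library was left out; only omitting TNF replicate 1 gave any. The RLE, library size, upper-quartile, reduced TMM, mean CPM and limma-voom settings passed 0. With the replicate block 0 genes and 0 of the 50 passed 5%, as without it, which cannot show whether the numbers pair the samples. At an unadjusted p under 0.05, 21 of the 50 were lower with the block and 16 without it. The cause of these differences was not tested. Library size alone moved the median of all genes to -0.11. Leaving out 1 library gave a median of -0.64 to -0.31 over the 50 genes, -0.84 to -0.35 for chaperones (-0.84 without TNF replicate 1), -0.86 to -0.36 for disulfide formation, -0.40 to -0.18 for translocation, -0.84 to -0.46 for ERAD and -0.57 to -0.40 for COPII export.

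The direction held in every setting for 42 of the 50 genes. It changed for Sec61g (-0.15 with library size alone, -0.0436 with the block, -0.17 with voom, -0.28 to 0.35 with 1 library left out), Ssr4 (-0.15, -0.0775, -0.0531 and -0.33 to 0.34 in the same order) and Derl1 (-0.0413 with library size alone, -0.0446 with upper-quartile factors, -0.00963 with no filter, -0.15 to 0.16 with 1 library left out). With 1 library left out it also changed for Calr (-0.0758 to 0.39), Pdia3 (-0.20 to 0.10), Sec13 (-0.26 to 0.0549), Sar1a (-0.21 to 0.0606) and Surf4 (-0.43 to 0.0105). Depth was not limiting for 48 of the 50 genes, with at least 100 counts in each library. Derl3 and Sec61g had fewer.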
